A study of Mus musculus with 6 samples.

Results

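The genes of autophagy, mitophagy and lysosome biogenesis were followed in hypoxic heart muscle cells given fibroblast growth factor 21 (FGF21) or left without it. They were chosen by name: 43 symbols for autophagy initiation, membrane supply, ubiquitin-like conjugation, cargo receptors, mitophagy, and the transcription factor TFEB with lysosomal genes. Of these, 42 had a row in the value table that the platform annotation pairs with that symbol alone, among 22180 genes measured in the series. Optn, which encodes the receptor optineurin, was the exception and was not analysed here. A row shared by Becn1 and another gene was not used.

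The cells were cardiomyocytes from hearts of C57BL/6 mice aged 1 day, plated for a short time to let faster-settling cells attach and then moved to fresh fibronectin-coated plates. The 3 FGF21 samples received FGF21 at 1 µg/ml during 12 h at 2% oxygen, with 5% CO2 and 93% N2. The 3 control samples had the same hypoxia with no FGF21. No normoxic cells were part of the comparison, so every value below describes hypoxic cells, and a response to hypoxia itself cannot be read from it. The labels call the samples biological replicates but do not say whether they came from separate litters or cultures, and the p-values therefore reflect just how far these 6 samples scattered, part of which may be technical.

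Autophagy encloses cytoplasm, damaged mitochondria or protein aggregates in a double membrane, the autophagosome, which fuses with the lysosome for digestion. The ULK1 kinase complex starts it, a phosphatidylinositol 3-kinase complex around Beclin 1 marks the growing membrane, and conjugation enzymes attach proteins of the ATG8 family (LC3 and GABARAP) to it, where cargo receptors dock. In the heart, this pathway clears damaged mitochondria and supplies nutrients around birth and under low oxygen. Much of its regulation acts on proteins, through phosphorylation and lipidation, and an array of RNA levels does not measure flux.

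TFEB and its relative TFE3 bind the E-box CACGTG within a longer palindrome known as the CLEAR element, in front of many lysosomal genes. RefSeq promoter windows (assembly GRCm38.p6) were at hand for 35 of the 43 genes. In the 250 bases before the listed start, read on both strands, CACGTG occurred in 6 of these 35 genes (17.1%), against 6.86% of all 27025 genes with a window. TCACGTGA, which contains CACGTG, occurred in 2 of them, Atg3 and Ctsd, and in 0.907% of all genes. The full CLEAR palindrome, which is TCACGTGA with G before it and C after it, occurred in 0 of the 35 and in 0.27% of all genes. A match describes letters in a window and not a bound site.

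The windows of 3 of these genes are shown because they hold the E-box most often or in its longer form, while their differences with FGF21, given further on, are unlike each other. Atg3 lies on the plus strand at chr16:45158579-45158828, Ctsd on the minus strand at chr7:142387828-142388077 and Lamp1 on the plus strand at chr8:13158911-13159160. Capitals mark CACGTG, which occurs 2 times before Atg3, 2 times before Ctsd and 4 times before Lamp1.
Atg3: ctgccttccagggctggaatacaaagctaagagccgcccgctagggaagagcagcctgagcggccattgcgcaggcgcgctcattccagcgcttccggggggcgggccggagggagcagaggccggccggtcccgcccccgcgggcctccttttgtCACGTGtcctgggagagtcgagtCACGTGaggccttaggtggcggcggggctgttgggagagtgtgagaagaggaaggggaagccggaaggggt
Ctsd: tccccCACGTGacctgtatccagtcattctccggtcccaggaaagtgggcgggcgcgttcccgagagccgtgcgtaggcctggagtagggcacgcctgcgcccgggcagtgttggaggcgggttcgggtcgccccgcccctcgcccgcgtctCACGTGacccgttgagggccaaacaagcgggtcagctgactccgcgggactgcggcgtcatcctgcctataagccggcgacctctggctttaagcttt
Lamp1: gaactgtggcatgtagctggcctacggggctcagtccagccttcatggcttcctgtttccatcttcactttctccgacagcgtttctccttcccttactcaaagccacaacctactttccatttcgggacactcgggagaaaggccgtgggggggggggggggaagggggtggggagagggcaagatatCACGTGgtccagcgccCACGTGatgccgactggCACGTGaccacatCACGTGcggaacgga
Atg5, Atg7 and Ctsl, the other genes with the E-box, have it 1 time each. For these, the listed start lies inside the gene's outer RefSeq bounds, so those windows need not be the main promoter.

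Values are on the log2 scale of the authors' robust multi-array average (RMA), and a difference is FGF21 minus control, followed by its standard error (SE). Arrays resembled each other closely, with correlations over all genes from 0.993 to 0.997, and array medians ran from 5.76 to 5.79 in FGF21 samples and from 5.81 to 5.83 in controls. Cardiomyocyte markers were bright, with Tnnt2 averaging 13.1 and Nppa 13.2 over the 6 arrays. Fibroblast markers were bright too, with Postn at 12.8 and Col1a1 at 12.0, so the cultures were mixed. In such bulk samples fewer cells of a type and less RNA per cell cannot be told apart.

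FGF21 was accompanied by little difference in these genes. With limma, 0 of the 42 members had an adjusted p under 0.05, as did 0% of all 22180 genes. At an unadjusted p under 0.05 there was 1 member, Atg3 (2.38% of members), against 11.7% of all genes. Groups did not overlap for 3 members, Atg7, Tfeb and Ctsb (7.14%), against 17.1% of all genes. Fold differences were small throughout: the widest was 1.196-fold, for Atg10, and 34 of 42 members differed by less than 0.1 on the log2 scale.

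The precision bounded most of these differences. The 95% interval, unadjusted, lay within 1.3-fold in either direction for 37 of 42 members (88.1%, against 88.2% of all genes) and within 1.5-fold for 41 (97.6%, against 98.8% of all genes). The exception was Atg10, whose interval reached 1.53-fold. Changes of a few percent could not be detected with 3 arrays per group, and larger ones could be missed too. Over all 22180 genes the widest difference was 2.13-fold, and 0 genes had an adjusted p of limma under 0.05.

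**Figure D1:**
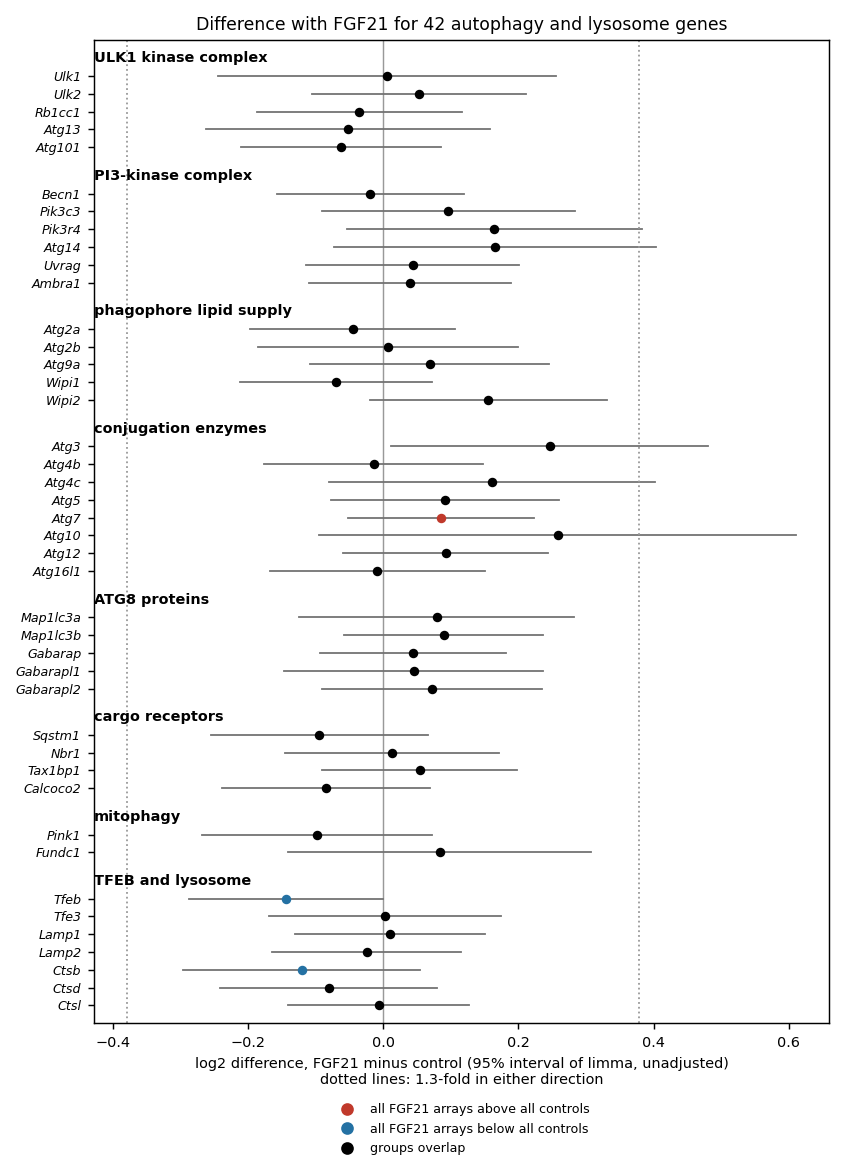
Difference between FGF21 and control for each of 42 genes, grouped by role (log2 scale, points), with the 95% interval of limma (lines). Most intervals lie between the dotted lines at 1.3-fold, Atg3 alone has an interval above 0, and Atg10 has the widest one, up to 1.53-fold.

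Of the 42 members, 26 were higher and 16 lower with FGF21, with a median difference of 0.0263, beside -0.0056 over all genes. That balance followed the scaling of the arrays. With quantile normalization applied again, 16 were higher and 26 lower, and with median centring of each array, 32 were higher and 10 lower. A shared direction of the members can therefore not be read from these data.

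The ULK1 kinase complex, which starts autophagy, had genes on either side of 0. Differences of its 5 genes ran from -0.06 to 0.05, with 2 higher and 3 lower, or 0 higher and 5 lower with quantile normalization applied again, and 3 higher and 2 lower with median centring or without control replicate 1. Atg101, which stabilises the complex, had the smallest p of the 5, with log2 values of 6.97, 6.86 and 6.98 in FGF21 samples and 7.07, 6.96 and 6.97 in controls, a difference of -0.06 ± 0.07 (SE). The groups overlapped. Rb1cc1, which encodes the scaffold FIP200, had 9.29, 9.40 and 9.45 with FGF21 and 9.39, 9.39 and 9.47 without. Ulk1 and Atg13 varied more between replicates than between groups. Ulk1 had 9.12, 8.95 and 8.87 in FGF21 samples and 9.23, 8.87 and 8.82 in controls, so that replicate 1 was the highest of its group on both sides.

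Genes of the phosphatidylinositol 3-kinase complex were slightly higher, within their spread. The median difference of the 6 was 0.07, with 5 higher and 1 lower, or 3 and 3 with quantile normalization applied again. Pik3r4, the regulatory subunit VPS15, had 7.51, 7.47 and 7.69 with FGF21 and 7.59, 7.36 and 7.23 without, a difference of 0.16 ± 0.10 (SE). The high control was replicate 1, and without it the difference was 0.26, with an unadjusted p of limma of 0.0176. Without control replicate 3 the difference was 0.08, with an unadjusted p of limma of 0.421. Uvrag, a Beclin 1 partner in later steps, had 9.05, 8.89 and 8.96 with FGF21 and 8.94, 8.99 and 8.85 without. Becn1 itself, which encodes Beclin 1, differed by -0.02 ± 0.06.

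Atg14, which directs the complex to autophagosome formation, depended on the array. It had 6.60, 6.98 and 6.92 in FGF21 samples and 6.82, 6.61 and 6.59 in controls. FGF21 replicate 1 lay with the low controls, while FGF21 replicates 2 and 3 lay above all of them. The difference was 0.16 ± 0.11 (SE) over all arrays and 0.28 without FGF21 replicate 1.

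The lipid supply genes, encoding the lipid transfer proteins ATG2A and ATG2B, the scramblase ATG9A and the membrane sensors WIPI1 and WIPI2, ran from -0.07 to 0.16. Wipi2, which recruits the conjugation machinery, had 7.11, 7.09 and 6.98 with FGF21 and 6.96, 6.98 and 6.76 without. The lowest FGF21 array stood just under the highest control, and the difference of 0.16 ± 0.08 (SE) had an unadjusted p of limma of 0.0761 and an adjusted p of 0.481. Without control replicate 3 it was 0.08. Its relative Wipi1 went the other way, at 8.84, 8.92 and 8.94 with FGF21 and 9.02, 8.93 and 8.96 without, with overlapping groups.

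The conjugation enzymes held the larger differences. Of 8 genes 6 were higher, with a median of 0.09, and the mean of the group was 7.33, 7.47 and 7.51 in FGF21 arrays and 7.29, 7.35 and 7.33 in controls. Atg3, the enzyme that transfers LC3 to its lipid anchor, had 8.64, 8.73 and 8.96 with FGF21 and 8.38, 8.72 and 8.49 without. Control replicate 2 lay inside the FGF21 range, so the groups overlapped. The difference was 0.25 ± 0.11 (SE), or 1.19-fold with a 95% interval from 1.01 to 1.40, with an unadjusted p of limma of 0.0416 and an adjusted p of 0.404. It was 0.16 without FGF21 replicate 3 and 0.34 without control replicate 2. Its unadjusted p was 0.0896 after a repeated quantile normalization.

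Atg10, which joins ATG12 to ATG5, had the greatest spread of the 42. It stood at 6.65, 7.35 and 7.24 in FGF21 samples and at 6.68, 6.93 and 6.86 in controls. FGF21 replicate 1 was the lowest of all 6 arrays, and the other FGF21 arrays were the highest. The SD was 0.376 with FGF21 and 0.129 without, and the difference was 0.26 ± 0.16 (SE). Without FGF21 replicate 1 it was 0.47, with an unadjusted p of limma of 0.00067, and 13.7% of all genes were then under 0.05. Without FGF21 replicate 2 the difference of Atg10 was 0.12 (unadjusted p of limma 0.46), and without FGF21 replicate 3 it was 0.18 (0.347). Atg4c, a protease that prepares ATG8 proteins, had the same arrangement among FGF21 arrays (6.64, 6.90 and 6.94), while its controls were spread widely (6.85, 6.67 and 6.48).

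Atg7, the activating enzyme for both conjugation systems, was the 1 member with every FGF21 array above every control, where 8.99% of all genes had that order. It had 6.95 in each FGF21 sample and 6.85, 6.82 and 6.93 in controls. Its FGF21 values were identical, with an SD of 0. A value repeated in any of the arrays, within or across groups, was found for 5 of 42 members and for 10.9% of all genes. How many genes had the same value in every FGF21 array, as Atg7 did, was not counted. The difference of Atg7 was 0.09 ± 0.06 (SE), with an adjusted p of limma of 0.621. Its partner genes Atg5 and Atg12 differed by 0.09 each, and Atg16l1 and Atg4b by -0.01 each.

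**Figure D2:**
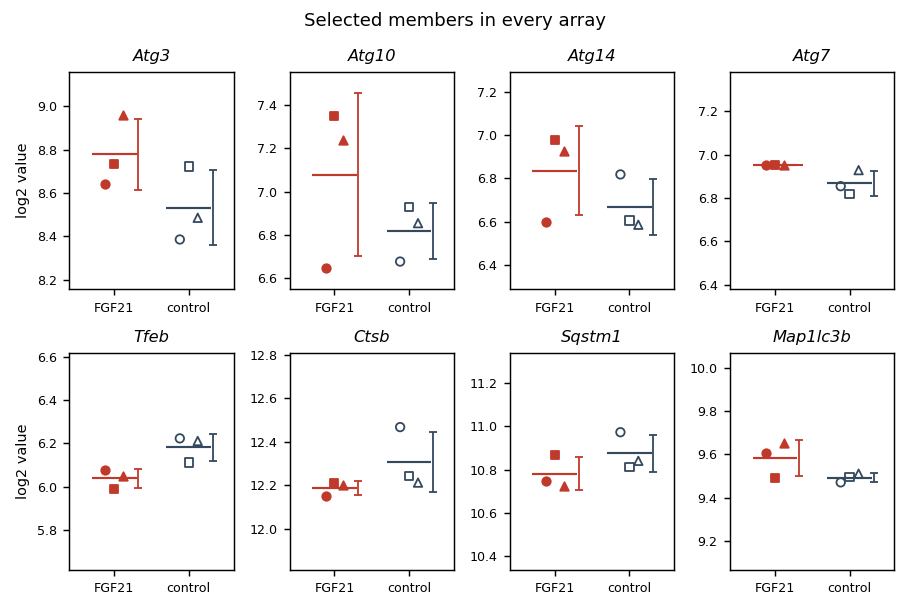
Log2 values of 8 members in each array, FGF21 left and control right, every panel spanning 1 log2 unit; symbols mark replicates 1 (circle), 2 (square) and 3 (triangle), lines the mean and bars the SD (n = 3). FGF21 replicate 1 lies far below the other FGF21 arrays for Atg10 and Atg14, and control replicate 1 stands apart for Ctsb.

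All 5 genes of the ATG8 family, whose proteins coat the autophagosome, were higher, each by less than 0.1, though this became 3 of 5 with quantile normalization applied again. Map1lc3b, the source of the LC3B protein used as a marker of autophagosomes, had 9.61, 9.49 and 9.65 with FGF21 and 9.47, 9.496 and 9.51 without, a difference of 0.09 ± 0.07 (SE). Gabarap had 11.95, 11.92 and 11.86 with FGF21 and 11.82, 11.88 and 11.89 without, and its other, dimmer row differed by 0.11. Neither group stood apart. Without FGF21 replicate 2 or control replicate 1, 4 of 5 were higher.

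Cargo receptors link ubiquitinated cargo to ATG8 proteins. Sqstm1, which encodes p62, had 10.75, 10.87 and 10.73 in FGF21 samples and 10.97, 10.81 and 10.84 in controls. The groups overlapped, and the difference of -0.09 ± 0.07 (SE) was -0.05 without control replicate 1. Nbr1, a relative of p62, and Tax1bp1 differed by 0.01 and 0.05. Calcoco2 averaged 4.43 with FGF21 and 4.51 without, below the lowest array median of 5.76, so a difference could have gone unseen there.

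Mitophagy genes did not separate the groups. Pink1, the kinase that marks depolarised mitochondria, had 8.04, 8.13 and 8.09 with FGF21 and 8.33, 8.11 and 8.12 without. Control replicate 1 made most of the difference of -0.10 ± 0.08 (SE), which was -0.0246 without it. Fundc1, a receptor of mitophagy under low oxygen, averaged 5.39 ± 0.136 (SD, n = 3) with FGF21 and 5.31 ± 0.176 without, also below the array medians. Of 10 further mitophagy genes measured from a list of 12, 0 reached an unadjusted p of limma under 0.05, beside 11.7% of all genes. Bnip3, a hypoxia-induced mitophagy receptor, averaged 10.63 with FGF21 and 10.68 without.

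TFEB and lysosomal genes leaned lower in the deposited scaling, which median centring of each array turned round. Tfeb had 6.08, 5.99 and 6.05 in FGF21 samples and 6.22, 6.11 and 6.21 in controls. All FGF21 arrays were below all controls, by a small gap. The difference was -0.14 ± 0.06 (SE), and limma gave it an unadjusted p of 0.0501 (adjusted p 0.427). Leaving out each array in turn moved it between -0.18 and -0.12. Tfeb averaged 6.11 over the arrays, at the 48th percentile of level, just below the median level of all genes. Tfe3 differed by 0.00301 ± 0.0769.

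Ctsb, encoding the protease cathepsin B, had 12.15, 12.21 and 12.20 with FGF21 and 12.47, 12.24 and 12.21 without. The groups did not overlap (8.14% of all genes were lower in this way), but controls 2 and 3 lay within 0.1 of the FGF21 arrays. The difference was -0.12 ± 0.08 (SE) and -0.04 without control replicate 1. Ctsd, encoding cathepsin D, had 11.38, 11.29 and 11.16 with FGF21 and 11.39, 11.37 and 11.32 without. Ctsl, Lamp1 and Lamp2, encoding cathepsin L and the main proteins of the lysosomal membrane, differed by -0.00684, 0.0103 and -0.0246.

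Of these 7 genes 2 were higher and 5 lower. With quantile normalization applied again 0 were higher and 7 lower, and with median centring 4 were higher and 3 lower. Macrophages are rich in lysosomes, so their 8 markers were read beside this group. Of these, 4 were higher and 4 lower, and their mean ran from 7.68 to 7.87 in FGF21 arrays and from 7.71 to 7.77 in controls. Cd68, a marker that is itself a lysosomal membrane protein, was lower in every FGF21 array, at 9.68, 9.75 and 9.71, than in controls, at 9.98, 9.90 and 9.87. Ptprc, the leukocyte marker CD45, was higher in every FGF21 array, at 6.545, 6.72 and 6.82, than in controls, at 6.498, 6.48 and 6.52 (0.20 ± 0.08, SE), and Csf1r differed by 0.15 ± 0.08. Of the 8 endothelial markers 7 were lower, with a list mean from 7.12 to 7.39 with FGF21 and from 7.51 to 7.75 without. Those 7 had an unadjusted p of limma under 0.05 (11.7% of all genes) and no overlap between groups (17.1% of all genes). Of 6 smooth muscle and pericyte markers 5 were lower, with a list mean from 8.59 to 8.71 with FGF21 and from 8.78 to 8.94 without. Kcnj8 at -0.65 and Rgs5 at -0.49 led these, while Cnn1 differed by -0.17, Acta2 by -0.04 and Pdgfrb by -0.03. Myh11 went the other way, higher in every FGF21 array than in every control, by 0.16 ± 0.06 (SE). Of 5 epicardial markers 4 were higher, with a list mean from 7.82 to 7.98 with FGF21 and from 7.70 to 7.80 without, led by Krt19 at 0.31 and Msln at 0.22. Their part in the values of lysosomal genes was not tested. Of the genes whose windows are printed above, picked with their differences known, Atg3 stood at 0.25. Ctsd stood at -0.08 ± 0.07 (SE) and Lamp1, with the most E-boxes, at 0.01 ± 0.06. The other genes with the E-box, Atg5, Atg7 and Ctsl, stood at 0.09, 0.09 and -0.00684. A link between the E-box and these differences was not tested.

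**Figure D3:**
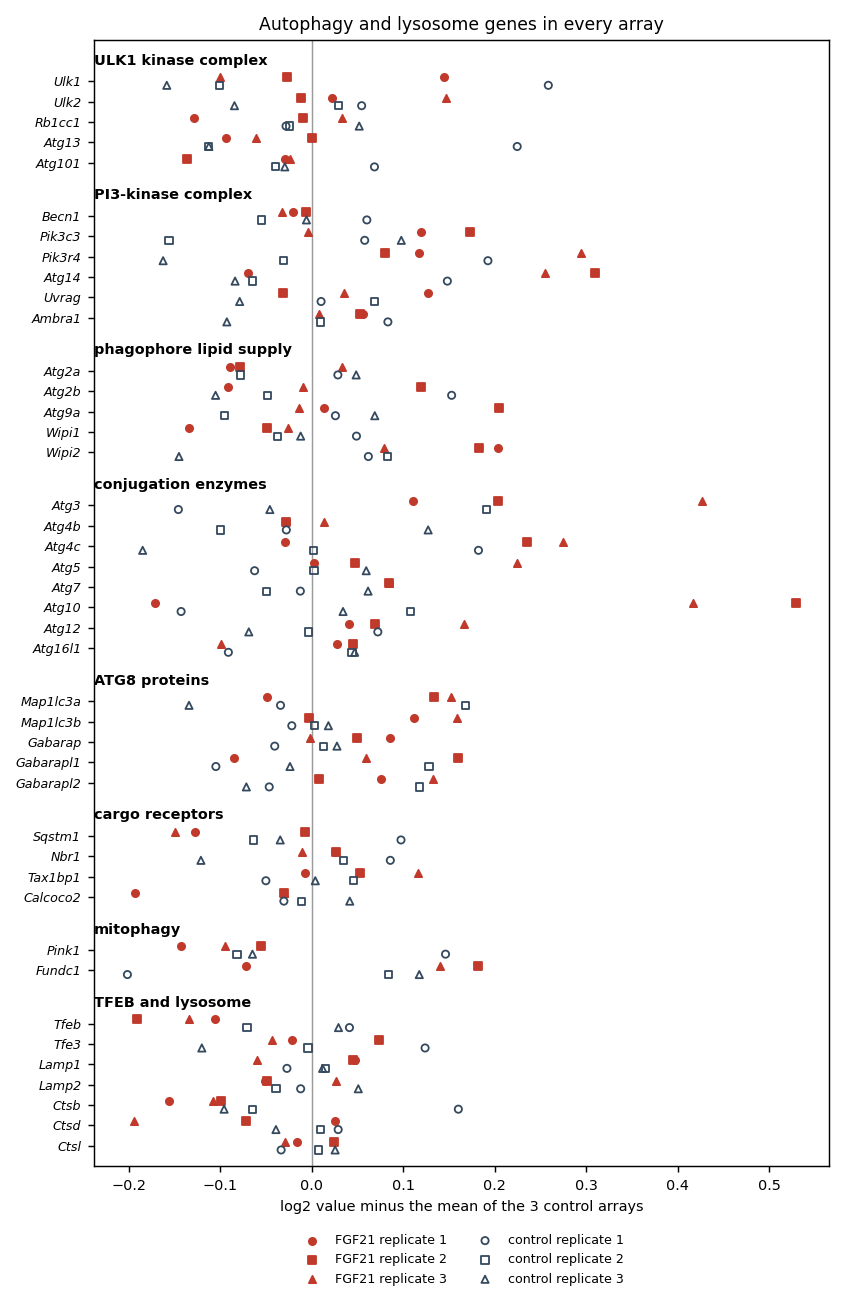
Log2 value of each member in each array, minus the mean of its 3 control arrays; filled symbols above are FGF21 and open symbols below are control, with the shape giving the replicate. Control replicate 1 is the highest array for 14 of 42 genes, and the FGF21 and control symbols intermix for all but Atg7, Tfeb and Ctsb.

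Single arrays weighed on many members. Control replicate 1 was the highest of the 6 arrays for 14 of 42 members (33.3%, against 19.6% of all genes), among them Ulk1, Atg13, Sqstm1, Pink1 and Ctsb. Control replicate 3 was the lowest for 15 (35.7%, against 17.6% of all genes). The mean of the 42 was 8.29, 8.35 and 8.35 in FGF21 arrays and 8.33, 8.30 and 8.27 in controls, so FGF21 replicate 1 lay within the control range. The cardiomyocyte marker mean was also highest in control replicate 1, at 10.97, where the other 5 arrays ran from 10.82 to 10.88. Its part in these values was not tested.

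A list of 119 further genes of autophagy control, mitophagy, vesicle fusion and the lysosome, of which 112 were measured, gave the wider pathway. An unadjusted p of limma under 0.05 was reached by 13 higher and 2 lower genes (11.6% and 1.79% of the list, beside 6.59% and 5.11% of all genes), together 13.4% of the list, close to the 11.7% of all genes. The count was 8 without FGF21 replicate 2. None passed after adjustment (0 genes at an adjusted p under 0.05). The median difference was 0.0339, and 71 were higher and 41 lower. These genes are bright, with a median at the 85.6th percentile of level. Over all genes the median difference was 0.0533 in the brightest 20% and -0.0298 in the dimmest 20%. Of 15 further core autophagy genes on the list, 7 were higher and 8 lower, with a median of -0.002. None of them had an unadjusted p of limma under 0.05 (0 genes, beside 11.7% of all genes).

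Of 15 genes of autophagosome fusion and late steps, 12 were higher and 3 lower, with a median of 0.06. An unadjusted p of limma under 0.05 was found for 4, Snap29, Ykt6, Stx17 and Vps41, beside 11.7% of all genes. Vps41 differed by 0.20 ± 0.09, and by 0.11 without FGF21 replicate 3. Plekhm1, at -0.15, Vps39, Epg5, Vps18 and Tecpr1 were among those lower or near 0. The SNARE proteins syntaxin 17 and YKT6 sit on the autophagosome and pair with SNAP29. Snap29 had 7.56, 7.88 and 7.81 in FGF21 samples and 7.45, 7.30 and 7.35 in controls, a difference of 0.38 ± 0.09 (SE), or 1.304-fold. Every FGF21 array was above every control, and the unadjusted p of limma was 0.00172, the adjusted p 0.194. Ykt6 had 7.33, 7.42 and 7.14 with FGF21 and 6.996, 7.09 and 7.04 without (0.26 ± 0.08). Stx17 had 7.38, 7.53 and 7.52 with FGF21 and 7.18, 7.33 and 7.27 without (0.21 ± 0.07). Their differences stayed positive in all 12 alternative settings, which adds no support, since they were named for small p in these same arrays. Vamp8, the lysosomal SNARE, differed by 0.11 ± 0.08, with overlapping groups. All of these proteins also serve other membrane fusion steps.

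Of 30 measured genes of the lysosomal membrane, including the proton pump, 17 were higher and 13 lower, with a median of 0.0111. Of the 30, 4 had an unadjusted p of limma under 0.05, close to the share of all genes (11.7%). Atp6v1c1, a subunit of the proton pump, had 9.40, 9.45 and 9.48 with FGF21 and 9.22, 9.26 and 9.26 without, a difference of 0.19 ± 0.06 (SE) with little spread in either group. Atp6v1h, another subunit, differed by 0.20 ± 0.07, and Tpcn1, a cation channel of endosomes and lysosomes, by 0.20 ± 0.08. The last of the 4 was the pump gene Atp6ap2, at 0.16 ± 0.06. Most pump genes measured were higher. Those lower were Atp6ap1 at -0.15, Atp6v1b2 at -0.08, Atp6v1f at -0.05 and Atp6v0a1 at -0.03. Of 23 genes measured from the list of lysosomal enzymes, 14 were higher and 9 lower, with a median of 0.012. An unadjusted p of limma under 0.05 was found for 3 of them, beside 11.7% of all genes. These were Asah1, the acid ceramidase, at 0.17 ± 0.06, Ctsh, cathepsin H, at 0.22 ± 0.09, and Lgmn, the asparagine endopeptidase legumain, at -0.15 ± 0.06. Ctsh differed by 0.14 without FGF21 replicate 2 and 0.15 without control replicate 1, where its unadjusted p of limma was 0.133 and 0.122.

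Of 19 kinases and other regulators of autophagy, 14 were higher and 5 lower, with a median of 0.09. An unadjusted p of limma under 0.05 was reached by 3 higher and 1 lower gene, beside 6.59% and 5.11% of all genes. Groups did not overlap for 7 higher and 1 lower gene, beside 8.99% and 8.14% of all genes. Sesn2, a stress-induced inhibitor of mTORC1, had 7.06, 7.40 and 7.03 with FGF21 and 6.91, 6.89 and 6.79 without (0.30 ± 0.10, SE). It differed by 0.18 without FGF21 replicate 2, and its unadjusted p was 0.0505 without control replicate 3. Rheb, the activator of mTORC1, differed by 0.17 ± 0.07. Bcl2, which can bind Beclin 1, had 8.24, 8.28 and 8.18 with FGF21 and 8.12, 7.97 and 7.95 without (0.22 ± 0.07). As the mean of its rows it differed by 0.08, with an unadjusted p of 0.234. Foxo1, a transcription factor with autophagy genes among its targets, had 7.77, 7.88 and 7.82 with FGF21 and 8.19, 8.01 and 7.98 without, a difference of -0.24 ± 0.07. As the mean of its 2 rows it was -0.12, with an unadjusted p of 0.149. Mtor differed by -0.00913. Adjusted p-values of limma for the 12 genes plotted lay between 0.194 and 0.380.

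**Figure D4:**
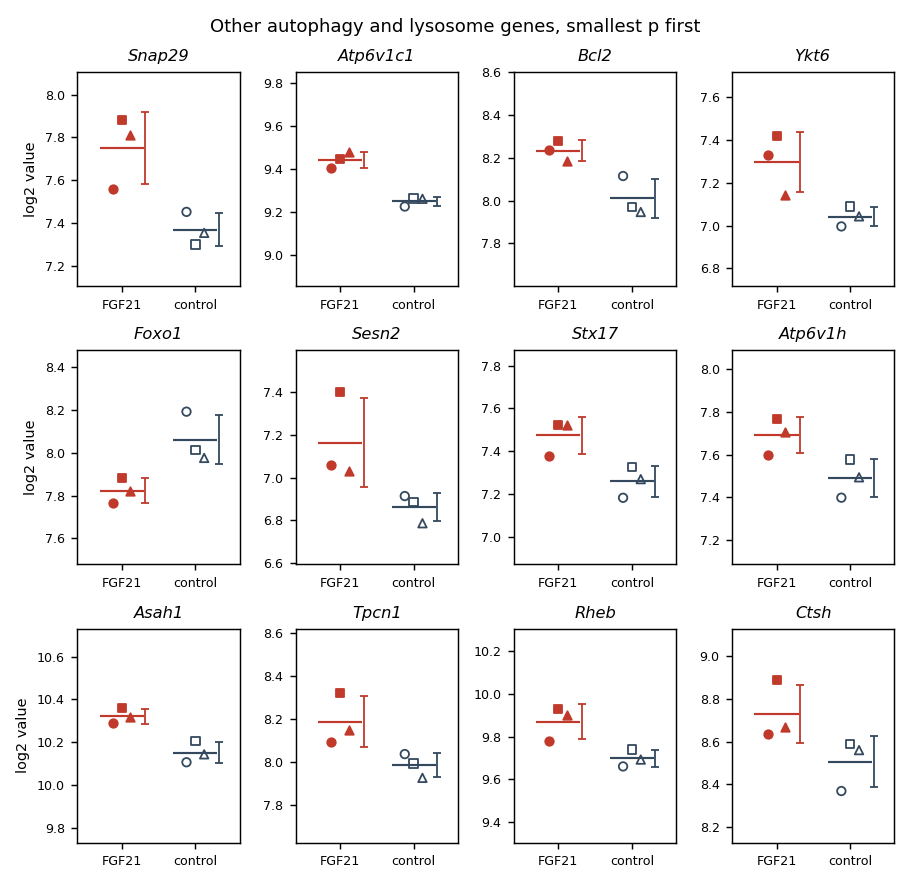
Log2 values in each array for the 12 further autophagy and lysosome genes with the smallest p, FGF21 left and control right, every panel spanning 1 log2 unit; symbols mark replicates 1 (circle), 2 (square) and 3 (triangle), lines the mean and bars the SD (n = 3). The groups do not overlap in any panel, Foxo1 is lower with FGF21 and the other 11 genes are higher, with Snap29 at 1.304-fold. Picking genes by small p favours groups that do not overlap. Among the 112 measured genes of the list, groups did not overlap for 26 (23.2%), against 17.1% of all genes.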

How the data were processed

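Total RNA of 6 samples, 3 with FGF21 and 3 controls, was hybridised to 1 Mouse Gene 2.0 ST array (Affymetrix) per sample. The deposited values are log2 expression made by the authors with RMA (R 3.2.2, affy), per the submitters' processing notes. This method subtracts background, brings the arrays to a common distribution and combines probes, which can hide shifts common to all genes and compress differences of dim ones. Chip definition and genome build: not given in the sources used here. The number of arrays limits the precision.

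Of 41345 rows, 23521 had 1 gene symbol in the platform annotation. 1814 with several symbols and 16010 not listed were not named. For genes with several rows the row with the highest mean was used, which left 22180 genes. FGF21 minus control was fitted over all of them by the lmFit and eBayes functions of limma 3.58.1 under R 4.3.3, two-sided and without covariates, with Benjamini-Hochberg adjustment over all genes and a threshold of 0.05. The fit was tested on simulated data with independent noise for each gene and array. Deviations that many genes share in an array were not simulated, so that test does not cover them.

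The members and lists were chosen with earlier results of these data known. Values per array are given for members with an unadjusted p under 0.05, for the member of smallest p and the brightest in each role, and for Ulk1, Atg4c, Atg7, Atg10, Atg14 and Ctsd, which were picked after their values were seen. Of the other list, the 12 genes of smallest p were named by rule. Lgmn, Vps41, Vamp8, Plekhm1, Vps39, Epg5, Vps18, Tecpr1, Bnip3, Mtor and the cell type markers named were picked after their values were seen. So were Atp6ap1, Atp6ap2, Atp6v1b2, Atp6v1f and Atp6v0a1. Alternatives were a replicate block, leaving out each array, the mean of all rows, quantile normalization applied again, median centring, a filter on dim genes, and a trend and robust prior.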

Additional observations from a re-analysis of the deposited data

How the results depend on the processing

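No member passed limma's adjusted p under 0.05 in any of the 12 alternative settings (0 of 42, or of 39 when the dimmer genes, below the median level, were dropped). The count at an unadjusted p under 0.05, 1 in the reported setting, was 3 with the replicate block (Atg3, Atg10 and Wipi2), 2 with the mean of all rows, 2 with median centring and 0 with quantile normalization applied again. Leaving out arrays gave 0 to 4. The median difference of the members, 0.0263, was -0.0145 with quantile normalization applied again and 0.0624 with median centring, where the median of all genes was 0.0305. Among the other 112 genes the count of 15 ran from 8 to 18 as arrays were left out. Of 57 genes followed, the only sign changes, 42 in all, were of the 24 members within 1 SE of 0. Arrays with the same number deviated from their group means with correlations of 0.103, 0.158 and 0.00653, and those with different numbers with -0.16 to 0.0416. The labels do not say what a number shares, so the numbers were not taken to pair the samples. With the replicate block 13.1% of all genes had an unadjusted p of limma under 0.05, beside 11.7% in the reported setting. It changed no other count by over 1.5 times (16 of the 112 genes). Over all genes limma called 0 in the reported setting, 0 to 16 in the other alternatives and 58 when the dimmer genes, below the median level, were dropped, none of them members. Dim genes such as Calcoco2 and Fundc1 are the least informative, and Tfeb was also among the members dropped with them.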
